A study of Mus musculus with 8 samples.

Results

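The 100 antisense entries of the piRNA precursor loci hold the reads that the authors assigned to the strand opposite the precursor, and each has a partner entry for the sense strand of the same locus. They were taken by name from a gene table of 19276 entries in all 8 libraries of the series: 100 entries name a locus and end in the suffix for antisense, and each of them found its sense partner. The series sequenced RNA from testes of C57BL/6 mice aged 6 weeks, and RNA recovered from testis lysate with an antibody against RNF17 (immunoprecipitates, IP). There were 4 groups of 2 libraries, which were heterozygous RNF17 testis, homozygous RNF17 testis, heterozygous RNF17 IP and homozygous RNF17 IP. Heterozygotes, not wild-type mice, served as the reference, and the labels do not name the Rnf17 allele. Whether the libraries of a group stem from separate animals is not stated, so p-values describe the spread between libraries, which can be technical. The heterozygous and homozygous testis libraries also served as the input of the IPs of their genotype.

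Piwi-interacting RNAs (piRNAs) are small RNAs of the germ line that guide PIWI proteins to complementary transcripts. In the adult mouse testis most are cut from long single-stranded precursors, which pachytene spermatocytes transcribe under the transcription factor MYBL1 (A-MYB), often from a pair of promoters that fire in opposite directions. In ping-pong amplification, a PIWI protein that carries a piRNA cuts a complementary transcript, and the cut end becomes a new piRNA of the opposite strand, so transcripts antisense to a precursor are possible partners of its piRNAs. RNF17 is made in germ cells and carries Tudor domains, a fold that binds methylated arginines such as those of PIWI proteins. The libraries here hold long RNA, so they measure transcripts and not piRNAs.

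The libraries held between 5661754 and 50575649 gene reads, of which the antisense entries took between 897, in replicate 1 of homozygous IP, and 18998, in replicate 2 of homozygous testis. The homozygous IP libraries are thus the least informative on these entries, with 22 and 32 of the 100 at 0 reads, while replicate 2 of homozygous testis had reads in all 100. In homozygous IP, 3 reads amounted to 0.568 and 0.501 CPM (read counts scaled to library size). Intervals and such floors cover counting error only. The targeted gene was lower in the libraries labelled homozygous: Rnf17 stood at 507 and 551 CPM in heterozygous testis and at 50.3 and 97.7 CPM in homozygous testis, and at 1263 and 1189 against 214 and 393 CPM in the IPs. The homozygous IP still held Rnf17 RNA above the level of homozygous testis (log2 fold change 2.03, SE 0.47, edgeR adjusted p = 0.0396).

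Antisense RNA was scarce beside the precursors. Over all 8 libraries the loci collected 39434 antisense and 3333958 sense reads. The mean antisense level of a locus ran from 0.0164 to 62.0 CPM with a median of 1.25 CPM, against a range of 6.58 to 1060.0 and a median of 175 CPM for the sense entries. Of the 100 antisense entries, 21 averaged 5 CPM or more, 35 averaged between 1 and 5 CPM, and 44 averaged under 1 CPM. The 10 most abundant entries held 50.3% of the summed mean antisense CPM, and the lower 50 held 7.30%. In 58 entries reads were present in every library.

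The antisense share of a locus, which is its antisense reads as a percent of all its reads pooled over the 8 libraries, was far from constant. It ran from 0.0466% to 32.6% with a median of 0.703%. In 65 loci it was under 1%, in 28 between 1% and 5%, and in 7 it reached 5% or more. Levels of the strands went together across loci only in part: the log2 mean CPM of antisense and sense entries correlated at r = 0.55 and rho = 0.58 over 100 loci. Those points share libraries and depth, and loci are not replicates. How the authors told the strands apart is not stated in the sources used here, so reads from the sense transcript that were assigned to the wrong strand cannot be separated from true antisense RNA at any single locus. The locus with the lowest share, 17-qC-935.1, had 9 antisense beside 19292 sense reads, so at that locus no more reads than these can have been assigned to the wrong strand.

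**Figure D1:**
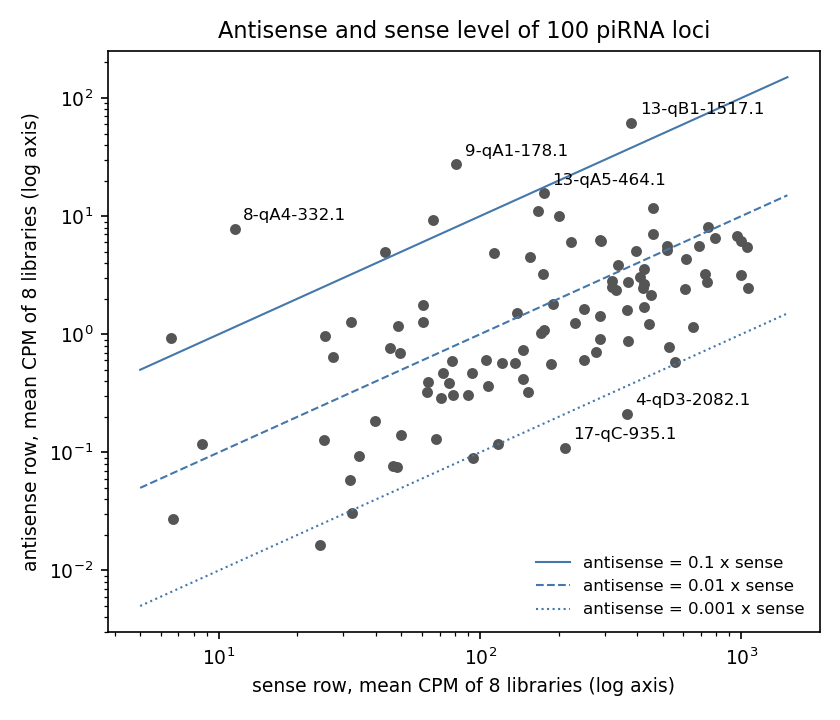
Mean level of the antisense entry (vertical axis) against that of the sense entry (horizontal axis) for each of the 100 loci, in CPM averaged over 8 libraries on log axes; lines mark antisense levels at fixed fractions of the sense level. 8-qA4-332.1, 9-qA1-178.1 and 13-qB1-1517.1 lie above the uppermost line, and 17-qC-935.1 and 4-qD3-2082.1 lie under the lowest line.

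The highest shares belonged to 8-qA4-332.1 (32.6%), 9-qA1-178.1 (14.9%), 13-qB1-1517.1 (13.1%), 13-qA3.1-355.1 (12.5%), 5-qG2-2301.1 (10.2%), 8-qA4-155.1 (8.07%) and 14-qC1-1010.1 (6.31%). The next locus, 13-qA5-464.1, lay just under the bound of 5% at 4.82%. At 8-qA4-332.1 antisense made up between 19.7%, in replicate 2 of homozygous testis, and 57.6%, in replicate 1 of heterozygous testis, of the locus reads of a library. Antisense stood at 5.67 and 6.16 CPM in heterozygous testis, 4.06 and 3.13 CPM in homozygous testis, 10.7 and 13.8 CPM in heterozygous IP and 8.52 and 10.5 CPM in homozygous IP. Sense stood at 4.17, 9.82, 5.38, 12.7, 14.0, 18.2, 17.6 and 10.3 CPM in the same order. Antisense exceeded sense there in replicate 1 of heterozygous testis (57.6% of the locus reads) and, barely, in replicate 2 of homozygous IP (50.4%). Whether either excess goes beyond counting error was not tested. 8-qA4-332.1 was the only 1 of the 100 loci with more antisense than sense reads in any library, and no locus (0) had more in all 8.

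At the other end, among loci with at least 10 reads in every library, the lowest mean shares over libraries were at 4-qD3-2082.1 (0.0604%), 4-qD2.2-349.1 (0.105%), 17-qC-935.1 (0.106%), 11-qB1.3-590.1 (0.132%) and 14-qA3-284.1 (0.137%). At 4-qD3-2082.1 the sense entry averaged 363.5 CPM and collected 44719 reads over the libraries, and the antisense entry 45 reads, of which 37 were in replicate 2 of homozygous testis. Loci of similar sense level thus differed widely: 13-qB1-1517.1, with 379 CPM of sense, averaged 62.0 CPM of antisense, and 4-qD3-2082.1 averaged 0.212 CPM. By chromosome, as the locus names give it, the 7 loci of chromosome 13 held 26.1% of the summed mean antisense CPM, and the 7 of chromosome 4 held 0.95%. Most of the chromosome 13 figure came from a single locus: 13-qB1-1517.1 made up 62.0 of its 88.0 CPM.

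Summed over the loci, antisense RNA was highest in the IP of heterozygotes and lowest in the IP of homozygotes. The sums were 358 and 349 CPM in heterozygous testis, 205 and 356 CPM in homozygous testis, 527 and 547 CPM in heterozygous IP, and 170 and 189 CPM in homozygous IP. Both heterozygous IP libraries lay above the other 6 libraries and both homozygous IP libraries below them, while the homozygous testis libraries lay far apart. Heterozygous IP held 3.0 times the antisense sum of homozygous IP, and 1.70 times its sense sum. Between homozygous and heterozygous testis the ratio was 0.792 for antisense and 1.33 for sense.

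The share of antisense in all locus reads separated the genotypes. In testis it was 1.60% (95% Wilson interval 1.53% to 1.66%) and 1.79% for heterozygotes, against 0.962% and 1.04% for homozygotes. In IP it was 1.43% and 1.30% for heterozygotes, against 0.851% and 0.721% for homozygotes. Each of the 4 heterozygous libraries had a higher share than each of the 4 homozygous libraries. The IP contrast was 1.37% ± 0.092 against 0.786% ± 0.092 (SD, n = 2), a difference of 0.580 percentage points, and the homozygous testis lay 0.692 points below the heterozygous testis. In both contrasts the exact two-sided permutation test gave p = 0.333, the smallest value that 2 against 2 libraries allow. The 4 IP libraries did not separate from the 4 testis libraries (1.08% ± 0.343 and 1.35% ± 0.409, exact two-sided permutation p = 0.343).

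**Figure D2:**
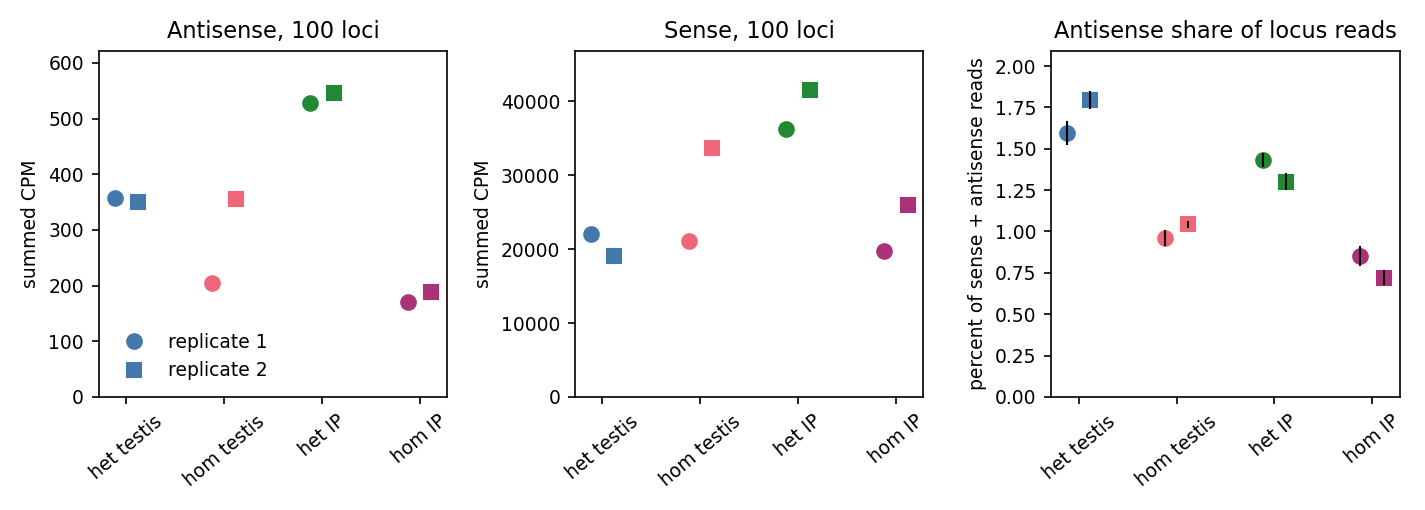
Summed CPM of the 100 antisense entries, summed CPM of the 100 sense entries, and antisense reads as a percent of all locus reads, each point a library and each colour a group (het, heterozygous; hom, homozygous); black bars are 95% Wilson intervals, which cover counting error only. The share of the 4 heterozygous libraries lies between 1.30% and 1.79%, and that of the 4 homozygous libraries between 0.721% and 1.04%.

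In the testis this difference in share rested on abundant antisense entries. Without the 10 most abundant loci the share was 0.849% and 0.826% in heterozygous and 0.679% and 0.868% in homozygous testis, and the groups overlapped. Taken as the median over loci with at least 10 reads, the difference turned to 0.067 points higher in homozygous testis. In the IPs it remained: without those 10 loci the shares were 0.777% and 0.611% against 0.388% and 0.333%, and the share pooled over both libraries of a group was higher in heterozygous IP at 80 loci, lower at 18 and equal at 2.

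The IPs of both genotypes were compared to see which antisense RNAs were recovered more in heterozygotes. RNF17 protein was not measured in these libraries. The mean antisense CPM was higher in heterozygous IP at 94 of the 98 loci with reads and lower at 4. The libraries of the genotypes did not overlap at 67 loci: heterozygotes were higher at 66 and lower at 1, where 29.0% of all entries were higher and 30.1% lower without overlap. In the sense entries 65 were higher and 21 lower in the same way. Antisense entries at 0 reads in both libraries numbered 17 in homozygous IP and 3 in heterozygous IP. The median antisense entry held 22.5 and 12 reads in the heterozygous IP libraries and 3 and 3 in the homozygous ones. Zeros in homozygous IP count as lower in these comparisons, and the part of depth was not tested.

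EdgeR's quasi-likelihood test called 38 antisense entries higher in heterozygous IP and 0 lower, out of 55 that passed the filter on low counts. Of all entries tested, 17.7% were called higher. The filter bears on that count, because 38 of the 55 passed only through the heterozygous IP; of the 17 that passed through both groups, 12 were called. With a filter on the mean over both groups, an alternative added after the data were seen, 37 of 52 were called higher and 0 lower (17.4% of all entries were called higher). The median log2 fold change was 2.01 there, 0.86 for the 100 sense entries and 0.03 for all entries. Reads of heterozygous IP alone can meet this filter too, and the 52 and the 100 entries are not the same loci. Without any filter, 43 of 98 were called higher and 0 lower, where 15.4% of all entries were. The 45 entries that were not tested held 34.0 and 21.9 CPM in sum in heterozygous IP and 10.0 and 7.17 CPM in homozygous IP.

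Of the 38 loci called for antisense, the sense entry was called higher at 23, lower at 1 and neither at 14. Among all 100 sense entries, 54 were called higher and 12 lower. Since the filters favour antisense entries that are high in heterozygous IP, the medians above do not show that antisense folds were larger than sense folds. That difference was not tested. The 38 calls became 23 of 52 tested without replicate 1 of heterozygous IP, where 11.0% of all entries were called higher, and 9 of 64 when all 8 libraries shared a single estimate of spread, where 3.12% of all entries were. DESeq2 called 28 higher and 0 lower, where 14.6% of all entries were called higher.

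**Figure D3:**
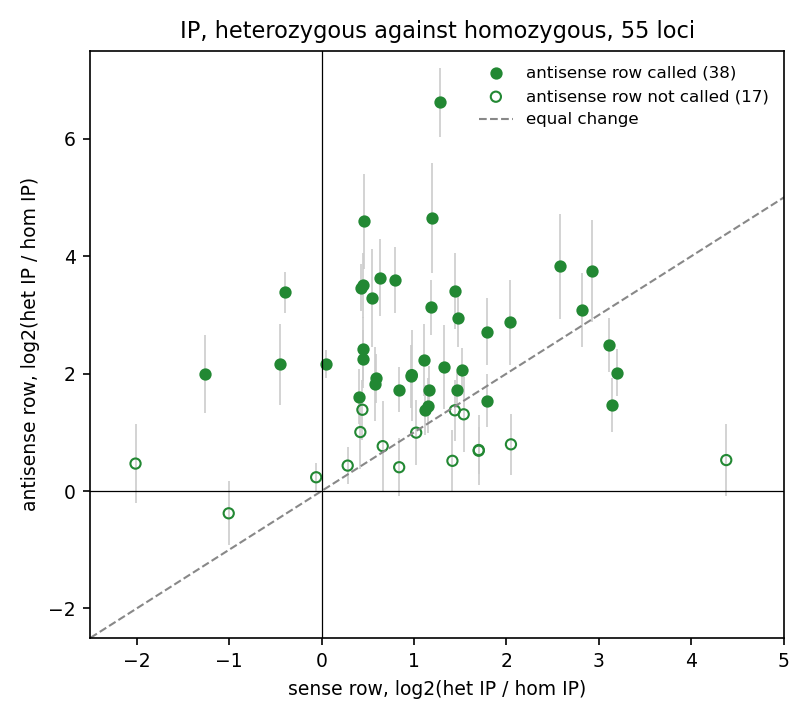
Log2 ratio of heterozygous to homozygous IP of the antisense entry (vertical axis, grey bars are the SE of the edgeR fit) against that of the sense entry (horizontal axis) for the 55 loci whose antisense entry was tested; filled points (38) were called and open points (17) were not. Since 38 of the 55 passed the filter only through heterozygous IP, the place of the points above or below the dashed line of equal change is set in part by that filter.

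Locus 13-qB1-1517.1 had the most antisense RNA. Its antisense entry stood at 59.5 and 136 CPM in heterozygous testis, 25.4 and 32.2 CPM in homozygous testis, 99.4 and 96.7 CPM in heterozygous IP and 27.1 and 19.4 CPM in homozygous IP. All 4 heterozygous libraries exceeded all 4 homozygous ones. Between the IPs this made a log2 fold change of 2.16 (SE 0.23, edgeR adjusted p = 4.64e-05). The sense entry was at 288 and 286 against 280 and 307 CPM there, a log2 fold change of 0.05 (edgeR adjusted p = 0.860). The antisense share of the locus was thus 25.5% ± 0.299 in heterozygous IP and 7.38% ± 2.04 in homozygous IP (SD, n = 2).

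The largest log2 fold change between the IPs, among the 55 antisense entries tested, was at 13-qA5-464.1. Its antisense entry stood at 28.1 and 41.8 CPM in heterozygous IP and at 0.757 and 0 CPM in homozygous IP, where 4 and 0 reads were found. In the library with 0 antisense of 460 locus reads, a share of up to 0.652% was allowed by counting error; both heterozygous IP libraries had 17.8% and 18.9%. This came to a log2 fold change of 6.62 (SE 0.59, edgeR adjusted p = 1.05e-05), against 1.28 for the sense entry (edgeR adjusted p = 0.00172). The antisense entry passed the filter on low counts only through heterozygous IP, which bears on its test.

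At 10-qA3-2592.1 and 14-qA3-19970.1 the antisense entry was called and the sense entry was not. The antisense entry of 10-qA3-2592.1 passed the filter on low counts through both groups. Those of 14-qA3-19970.1 and 3-qA2-617.1 passed only through heterozygous IP, which bears on their tests. At 10-qA3-2592.1 antisense was at 20.2 and 22.0 CPM in heterozygous IP and at 1.89 and 2.34 CPM in homozygous IP (log2 fold change 3.39, SE 0.35, edgeR adjusted p = 2.97e-05), and sense at 356 and 396 against 495 and 556 CPM (log2 fold change -0.40, adjusted p = 0.143). At 14-qA3-19970.1 antisense was at 12.8 and 15.4 against 1.32 and 1.33 CPM (log2 fold change 3.47, adjusted p = 7.78e-05), with a sense log2 fold change of 0.43 (adjusted p = 0.193). At 3-qA2-617.1 both strands were called, with antisense at 8.98 and 7.29 against 0.946 and 1.00 CPM (log2 fold change 3.13, adjusted p = 5.13e-04) and a sense log2 fold change of 1.19 (adjusted p = 7.54e-04).

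Among the other abundant entries, 3-qA3-2052.1, 5-qG2-2301.1 and 7-qD1-19431.1 were called higher in heterozygous IP, with log2 fold changes of 1.92, 1.72 and 1.72. The sense entry rose too at 5-qG2-2301.1 (1.47) and 7-qD1-19431.1 (1.16), and was not called at 3-qA3-2052.1 (0.59, edgeR adjusted p = 0.0611). 7-qD1-19431.1 was not called without replicate 2 of heterozygous IP (edgeR adjusted p = 0.0667). At 14-qC1-1010.1 the strands came out the other way round: sense was called (log2 fold change 1.70, edgeR adjusted p = 2.00e-04) and antisense was not (0.69, adjusted p = 0.222), except without replicate 2 of homozygous IP (1.39, adjusted p = 0.0201). With all 8 libraries in the fit, 3-qA2-617.1, 3-qA3-2052.1, 5-qG2-2301.1 and 7-qD1-19431.1 were not called (edgeR adjusted p = 0.106, 0.123, 0.0620 and 0.127). Antisense was not called in the first place at 9-qA1-178.1 (0.24, adjusted p = 0.489) and 8-qA4-332.1 (0.43, adjusted p = 0.319).

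**Figure D4:**
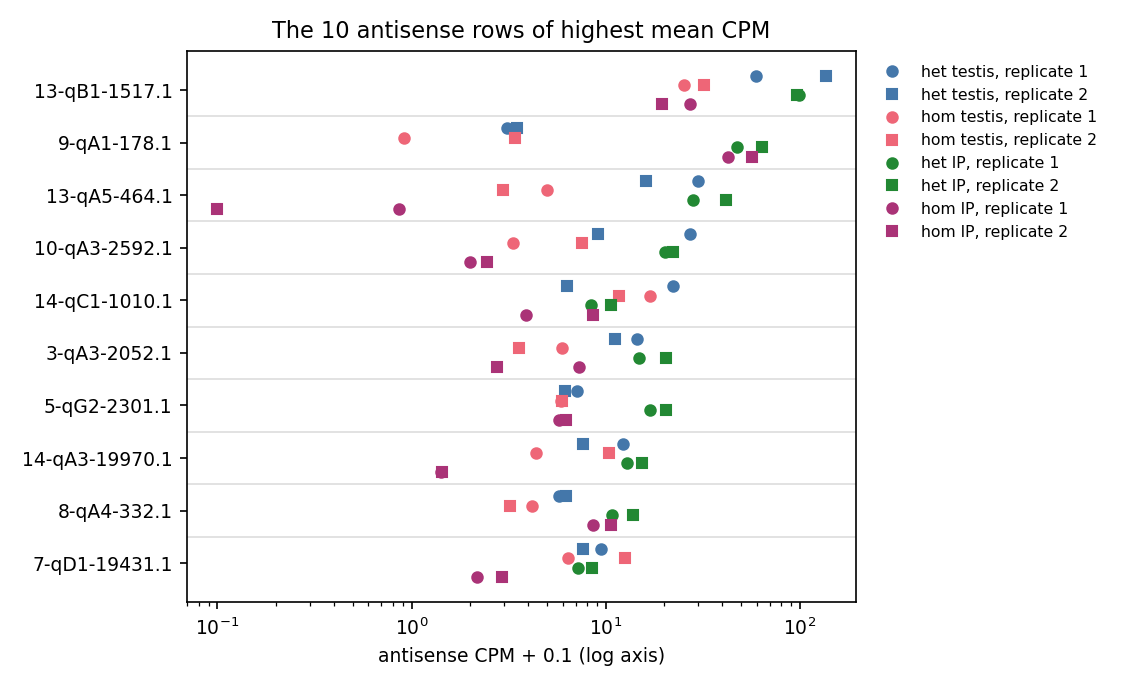
Antisense CPM plus 0.1 on a log axis for the 10 antisense entries of highest mean CPM (rows), each point a library; colours are groups and shapes are replicates. Homozygous IP lies below heterozygous IP in 8 of the 10 rows without overlap, and 9-qA1-178.1 is set apart by the gap between its 4 IP and its 4 testis libraries.

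Markers of cell types differed between these IPs as well. Of markers of elongating spermatids, the late haploid cells that reshape into sperm, all 6 were called higher in heterozygous IP, and their summed level was 4862 and 4263 CPM against 157 and 196.5 CPM in homozygous IP, with no marker at 0. Of 6 round spermatid markers, 6 were called higher, with sums of 1408 and 1386 against 397 and 444 CPM. Of 8 markers of pachytene spermatocytes, the cells that make the precursors, 2 were called higher and 3 lower, with sums of 4893 and 5280 against 6551 and 7237 CPM. The part of these cell types in the antisense differences was not tested. In whole testis and its lysate, fewer cells of a type and less RNA per cell cannot be told apart.

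Each IP was set against the testis libraries of its own genotype to see which antisense RNAs were enriched over input. In heterozygotes the antisense entry was higher in IP without overlap at 50 of 99 loci with reads and lower at 3, where 25.8% of all entries were higher and 21.4% lower. Of the 100 sense entries 65 were higher and 6 lower in the same way, so the rise was not particular to antisense. EdgeR called 0 of 60 antisense entries tested (0.00% of all entries), with 15 at an unadjusted p under 0.05 (18.1% of all entries). DESeq2 called 1 higher (1.91% of all entries) and gave no adjusted p to some of the 60. Of the 60, 34 passed the filter on low counts through both groups and 24 only through heterozygous IP, which bears on these counts. In homozygotes the antisense entry was lower in IP without overlap at 62 of 100 loci and higher at 2, against 27.1% and 23.8% of all entries; of the sense entries 46 were lower and 16 higher. Zeros at the low depth of homozygous IP count as lower there, and the part of depth in this count was not tested. The antisense sum of homozygous IP was 0.639 times that of homozygous testis, and the sense sum 0.834 times. EdgeR called 2 of 48 tested, 1 higher and 1 lower, where 1.84% of all entries were called higher and 1.45% lower; 22 had an unadjusted p under 0.05 (22.7% of all entries). Of the 19 entries that passed the filter through both groups 0 were called, and both called entries passed through the group where they are high.

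These edgeR counts depended on single libraries. In heterozygotes 24 of 72 were called without replicate 1 of heterozygous testis, all higher in IP, and 23 of 61 without replicate 2, of which 18 were higher and 5 lower. Those fits leave the group a lone library assumed to vary like the other group, and they called 40.8% and 52.4% of all entries, more than the 33.3% and 37.7% of the antisense entries. In homozygotes 27 of 59 were called without replicate 1 of homozygous testis, where 17.6% of all entries were, and 5 of 49 without replicate 2, where 32.5% of all entries were. For the interaction, the IP to testis ratio in heterozygotes over that in homozygotes, edgeR called 0 of 64 antisense entries tested (0.00% of all entries). Of these, 31 had an unadjusted p under 0.05 (9.68% of all entries, and 47 of the 100 sense entries). An entry high in a single group could pass the filter on low counts, which bears on that count. DESeq2 called 0 (1.73% of all entries), but it gave an adjusted p only to the antisense entries of 13-qB1-1517.1 and 9-qA1-178.1. For the rest, which include those named next, no call by DESeq2 was possible. The smallest unadjusted p-values of the interaction were at 17-qA3.3-26735.1 (log2 ratio 4.42, edgeR adjusted p = 0.260), 15-qD1-4001.1 (4.41, adjusted p = 0.307) and 9-qA5.3-24188.1 (5.23, adjusted p = 0.307).

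The antisense RNA of 9-qA1-178.1 was higher in IP than in testis in both genotypes. It stood at 3.0 and 3.39 CPM in heterozygous testis, 0.812 and 3.29 CPM in homozygous testis, 47.3 and 63.5 CPM in heterozygous IP and 42.8 and 56.7 CPM in homozygous IP. All 4 IP libraries lay above all 4 testis libraries, and the genotypes overlapped in IP. The log2 fold change of IP over testis was 4.48 (SE 0.60, edgeR adjusted p = 0.00647) in homozygotes and 4.13 (SE 0.45) in heterozygotes, where edgeR gave an adjusted p of 0.206 and DESeq2 2.21e-08. The sense entry was not called, at 43.0 and 76.8, 42.5 and 98.7, 92.5 and 92.1, and 92.7 and 111 CPM in the same order of groups (log2 fold change 0.52 in homozygotes, edgeR adjusted p = 0.496, and 0.67 in heterozygotes, adjusted p = 0.404). The antisense share of the locus was 5.37% ± 1.62 in testis and 37.3% ± 4.96 in IP of heterozygotes, and 2.55% ± 0.956 and 32.7% ± 1.60 in those of homozygotes (SD, n = 2), given as a description with no test.

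The entry called lower in homozygous IP was 9-qA5.3-24188.1, and that call rested on a single testis library. Its antisense entry stood at 2.00 and 2.10 CPM in heterozygous testis, 3.35 and 26.7 CPM in homozygous testis, 5.34 and 3.65 CPM in heterozygous IP and 0.757 and 1.00 CPM in homozygous IP. Replicate 2 of homozygous testis held 1429 of its reads. Homozygous IP over testis came to -4.10 on the log2 scale (SE 0.94, edgeR adjusted p = 0.0389), and to -1.99 without that library (adjusted p = 0.101); with all 8 libraries in the fit the adjusted p was 0.153. Of the heterozygous comparison, 5-qG2-950.1 (0.167 and 0.271 CPM in testis against 1.31 and 1.43 CPM in IP, edgeR adjusted p = 0.216) and 15-qD1-4001.1 (1.33 and 1.49 against 4.49 and 6.50 CPM, adjusted p = 0.218) followed 9-qA1-178.1 in unadjusted p. Each was higher in both IP libraries than in both testis libraries. Both entries passed the filter on low counts only through heterozygous IP, which bears on their tests. At 5-qG2-950.1 the value of replicate 1 of heterozygous testis lay under the 0.5 CPM that 3 reads amount to there.

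Homozygous and heterozygous testes were compared to see how antisense RNA differed between the genotypes. Homozygous testis was higher without overlap at 22 of 100 loci and lower at 13, where 19.8% of all entries were higher and 17.9% lower. Of the sense entries 35 were higher and 8 lower in the same way. EdgeR called 0 of 66 antisense entries tested (0.00% of all 14332 entries tested), with 8 at an unadjusted p under 0.05 (10.1% of all entries). Of the 66, 43 passed the filter on low counts through both groups, 16 only through homozygous testis and 1 only through heterozygous testis. DESeq2 called 1 higher and 2 lower, where 0.174% of all entries were called higher and 4.78% lower. Without replicate 1 of heterozygous testis edgeR called 4 of 84, where 8.23% of all entries were called, and without replicate 2 it called 3 of 61, where 2.82% were.

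The antisense entries with the smallest p-values were lower in homozygotes while their sense partners differed by less than the spread between replicates. At 13-qA5-703.1 antisense was at 13.2 and 8.94 CPM in heterozygous and 1.32 and 1.74 CPM in homozygous testis, a log2 fold change of -2.83 (SE 0.65, edgeR adjusted p = 0.151, DESeq2 0.00324), and the sense entry was at 109 and 145 against 90.8 and 173 CPM (log2 fold change 0.06). At 13-qA5-464.1 antisense was at 30.0 and 16.0 against 4.87 and 2.86 CPM (log2 fold change -2.58, SE 0.67, edgeR adjusted p = 0.196, DESeq2 0.00730), and sense at 290 and 109 against 298.5 and 259 CPM. At 17-qA3.3-352.1 antisense was at 13.3 and 6.10 against 2.64 and 1.20 CPM (log2 fold change -2.37, SE 0.75, edgeR adjusted p = 0.306, DESeq2 0.0519), and sense at 225 and 229 against 121 and 246 CPM. In each the antisense libraries of the genotypes did not overlap. When edgeR used DESeq2 size factors, or no filter on low counts, 0 antisense entries were called. The labels do not say that a replicate number marks a shared animal or day. With these numbers as a block, edgeR called each of the 3 (adjusted p = 0.0102, 0.009 and 0.0165). Of these, 13-qA5-703.1 was called by edgeR with all 8 libraries in the fit (adjusted p = 0.0151), and each of the 3 without replicate 2 of heterozygous testis (0.0203, 0.00974 and 0.0412). Without replicate 1 of heterozygous testis only 13-qA5-703.1 of the 3 was called (edgeR adjusted p = 0.0320), and without either replicate of homozygous testis none was (adjusted p from 0.542 to 0.963).

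Values of these loci in the IPs are given beside those of testis, as a description: most antisense entries were higher in heterozygous IP. The antisense entries of 13-qA5-703.1, 17-qA3.3-352.1 and 9-qA5.3-24188.1 passed the filter on low counts only through that group, which bears on their tests. At 13-qA5-703.1 antisense was at 5.43 and 7.13 CPM in heterozygous IP and 0.568 and 0.501 CPM in homozygous IP (log2 fold change 3.59, edgeR adjusted p = 6.78e-04). At 17-qA3.3-352.1 it was at 6.18 and 5.55 against 0.568 and 0.501 CPM (log2 fold change 3.50, adjusted p = 7.34e-04), where the homozygous libraries held 3 reads each. At 9-qA5.3-24188.1, added here because the authors' deposited table lists it and higher in homozygous testis by DESeq2 (log2 fold change 2.87, adjusted p = 0.0356) and not by edgeR (adjusted p = 0.372), the order was the other way in IP, with heterozygotes higher by a log2 fold change of 2.42 (edgeR adjusted p = 0.00641). The elongating spermatid markers also differed between the testes. Their sum was 3673 and 19300 CPM in heterozygous and 181 and 161 CPM in homozygous testis, and their part in the antisense differences was not tested.

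The authors' deposited table of differences between the testes lists 734 entries, where the gene table has 19276. Of the 100 antisense entries of piRNA loci it lists 4, a similar proportion, and of the 100 sense entries 0. In log2 fold changes, the authors' deposited table gives -2.34 for 13-qA5-703.1 (adjusted p of 0.00138) and -2.0 for 13-qA5-464.1 (adjusted p of 0.00820). Also in the authors' deposited table are 9-qA5.3-24188.1 (1.80, adjusted p of 0.0606) and 17-qA3.3-352.1 (-1.66, adjusted p of 0.0738), with adjusted p-values above 0.05. That table rests on the same testis libraries, so it is not independent evidence.

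**Figure D5:**
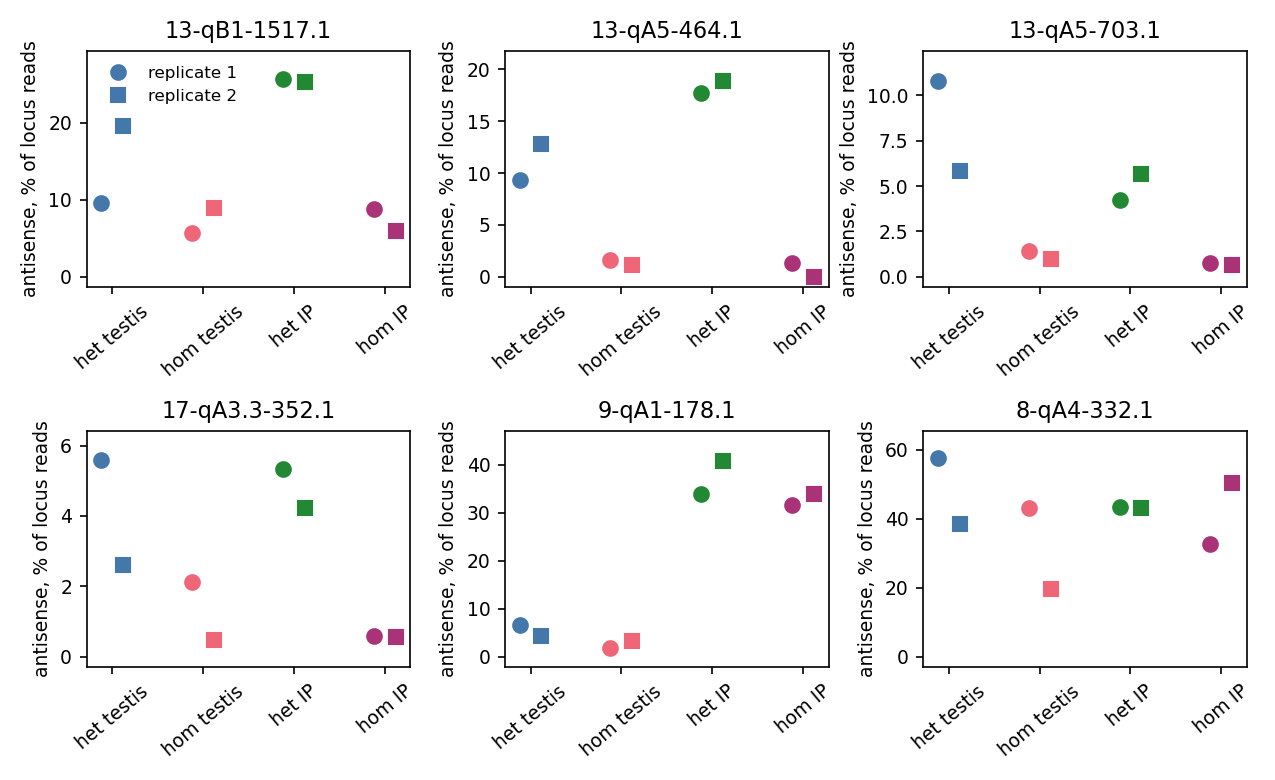
Antisense reads as a percent of all reads of the locus, by library, for 6 loci named in the text (het, heterozygous; hom, homozygous; each panel has its own scale). At 13-qA5-464.1 and 13-qA5-703.1 both homozygous groups lie under 2%, and at 9-qA1-178.1 the 4 IP libraries lie above 30% and the 4 testis libraries under 7%.

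Other loci of 3 bands are given beside those described. Of the 4 loci of band 13-qA5, 464.1 and 703.1, both lower in homozygous testis and IP, averaged 15.6 and 4.85 CPM of antisense, while 13-qA5-208.1 averaged 0.472 CPM and 13-qA5-967.1 averaged 0.130 CPM with sense levels of 92.9 and 67.6 CPM. In band 17-qA3.3, the antisense entry of 17-qA3.3-352.1 was lower in homozygous testis, and that of 17-qA3.3-26735.1 was at 1.83 and 2.10 CPM in heterozygous and 4.06 and 4.17 CPM in homozygous testis. Antisense at 17-qA3.3-27363.1, the remaining locus of that band, was at 2.00 and 3.66 against 3.25 and 12.3 CPM, and overlapped between the genotypes. In band 8-qA4, 8-qA4-155.1 resembled 8-qA4-332.1 in its high share but not in the IPs: its antisense was at 2.53 and 2.53 CPM in heterozygous IP and at 0.189 and 0 CPM in homozygous IP, from 27, 16, 1 and 0 reads. The loci of these bands beside those already described were chosen after their values were seen.

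There are 7 loci named after a gene rather than a band. The antisense entries of pi-Wdfy3.1 and pi-Arhgap20.1 lay above the median of all 100 antisense entries (1.25 CPM), and those of the other loci named so lay below it. Mean antisense levels of the 7 were 1.77 CPM at pi-Wdfy3.1, 1.62 at pi-Arhgap20.1, 0.910 at pi-1700006A11Rik.1, 0.880 at pi-1700016M24Rik.1, 0.604 at pi-Gm5878.1, 0.308 at pi-Cdc42ep3.1 and 0.184 CPM at pi-Tmem194.1. Together these 7 held 1.86% of the summed mean antisense CPM. Of the genes themselves, 5 have an entry of their own. Cdc42ep3, an effector of the small GTPase CDC42, was at 45.9 and 42.1 CPM in heterozygous IP and 7.57 and 3.17 CPM in homozygous IP (log2 fold change 3.13, edgeR adjusted p = 6.29e-05). Tmem194 (0.64, edgeR adjusted p = 0.0986) and Wdfy3 (0.46, adjusted p = 0.102) were not called between the IPs. 1700006A11Rik and 1700016M24Rik were not tested. How reads were divided between such a gene and its locus is not stated, so the values of gene and locus are uncertain.

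Genes of the piRNA pathway were counted beside the loci, and of the 30 listed, 28 have an entry. Between the IPs 27 were tested, and 6 were called higher in heterozygous IP, where 17.7% of all entries were, and 0 lower: Rnf17 (log2 fold change 2.10, edgeR adjusted p = 1.85e-04), Gtsf1, a partner of PIWI slicing (2.41, adjusted p = 2.76e-04), Piwil1, the PIWI protein of pachytene spermatocytes (1.14, adjusted p = 0.00174), Gpat2, Adad2 and Pld6. The median log2 fold change over the 27 was 0.11. Piwil2, another PIWI protein, was at 174 and 204 against 187 and 178 CPM, and Mybl1 at 126 and 125 against 136 and 132 CPM (edgeR adjusted p = 0.634 and 0.975). In homozygous IP over testis 1 of 28 was called, Rnf17, and in the testis and in heterozygous IP over testis 0 of 28 and 0 of 27 were.

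Reads on transposons had a different balance of strands from the loci in the same libraries. Of uniquely mapped transposon reads, antisense made up 56.2% and 47.2% in testis of heterozygotes and 58.3% and 52.4% in that of homozygotes. In IP it made up 35.0% and 44.7% for heterozygotes and 43.9% and 40.3% for homozygotes. Antisense thus made up 35.0% to 58.3% of these transposon reads, against 0.721% to 1.79% of the reads of the piRNA loci. Transposon reads were counted by family, and the rule for their strand is not stated, so both shares may not measure the same thing.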

How the data were processed

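The authors deposited whole-number read counts per entry for genes and for transposon families (uniquely mapped reads). The submitters' processing notes name STAR, DESeq and build mm9; versions and the rules for counting and strand were not stated there. Per the labels' protocols, cDNA was primed with not-so-random primers. The authors' deposited table of differences holds, per the file headers, normalised signal averaged by genotype, log2 fold changes with a standard error (kept as a score) and p-values.

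The gene table was scaled by TMM and tested whole with edgeR 4.0.16 in R 4.3.3 (quasi-likelihood, filterByExpr, Benjamini-Hochberg adjusted p under 0.05), each comparison on its own 4 libraries and the interaction on 8. CPM use the TMM library sizes of all 8 libraries. DESeq2 1.42.0, other scaling, no filter, all libraries together, a replicate block and leaving out each library were alternatives. The edgeR script was tested on simulated data. Shares were compared by exact permutation tests (scipy 1.17.1).

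Named entries are Rnf17, the 10 most abundant antisense entries, up to 5 called per comparison by adjusted p (3 by unadjusted p where none was called), the 5 lowest shares among loci with at least 10 reads per library, Mybl1, Piwil1, Piwil2 and up to 3 called pathway genes per comparison. Members and lists were chosen with earlier results of these data known. Locus coordinates and sequences were not used here.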

Additional observations from a re-analysis of the deposited data

Results flagged for a closer look

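The antisense sum of the 100 loci moved in opposite directions from testis to IP in the genotypes. In heterozygotes both IP libraries (527 and 547 CPM) lay above both testis libraries (358 and 349 CPM), a ratio of means of 1.52. In homozygotes both IP libraries (170 and 189 CPM) lay below both testis libraries (205 and 356 CPM), a ratio of 0.639. The sense sums of the same loci had ratios in the same order, 1.89 and 0.834, and overlapped between homozygous IP and testis. The difference between these ratios was not tested. At single loci edgeR called 0 of 64 antisense entries for the interaction. Of these, 31 had an unadjusted p under 0.05 (9.68% of all entries, and 47 of the 100 sense entries). An entry high in a single group could pass the filter on low counts, which bears on that count. DESeq2 called 0, but it gave an adjusted p only to the antisense entries of 13-qB1-1517.1 and 9-qA1-178.1.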

How the results depend on the processing

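With 2 libraries a group, these counts move with single libraries and with the estimate of spread; the cause was not tested. The antisense share in testis, 0.692 points lower in homozygotes, turned to 0.067 and 0.063 points higher as a median over loci with at least 10 or 50 reads; no other share comparison changed direction under the alternatives run. Each count of called antisense entries is followed by the percent of all entries called in the same fit, in either direction. In the testis comparison 0 (0.00%) became 3 by DESeq2 (4.95%), 6 of 66 with a replicate block (6.58%), 1 with all 8 libraries in the fit (4.62%), and 0 to 4 with a library left out (0.519% to 8.23%). Between the IPs, 38 of 55 (30.1%) became 9 of 64 with all 8 libraries in the fit (3.43%), and 23 to 39 with a library left out (15.3% to 38.3%). In heterozygous IP over testis, 0 (0.00%) became 1 by DESeq2 (4.45%), 1 with a replicate block (1.43%), and 0 to 24 with a library left out (0.0757% to 52.4%). In homozygous IP over testis, 2 of 48 (3.28%) became 4 with DESeq2 size factors (4.48%), 4 by DESeq2 (10.0%), 12 of 100 without the filter on low counts (8.15%), 7 with a replicate block (7.57%), 1 of 64 with all 8 libraries (0.360%), and 2 to 27 with a library left out (0.633% to 32.5%). The interaction stayed at 0 under the alternatives run, though DESeq2 gave an adjusted p only to the antisense entries of 13-qB1-1517.1 and 9-qA1-178.1. Fits that leave a group a lone library assume that it varies like the others.

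Replicate numbers were checked for pairing over 14180 entries: deviations from the group means correlated at 0.601 between the testis groups, 0.044 between the IPs, 0.038 between heterozygous IP and testis, and -0.129 between homozygous IP and testis. With the numbers crossed in that last comparison, added after the data were seen, 11 of 48 were called (13.4% of all entries). The labels do not say that a number marks a shared animal or day. Of the fold changes of named entries under alternatives, 201 kept their direction and side of the threshold, 19 newly passed it, 7 no longer did, and 0 turned direction.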
